A study of Mus musculus with 16 samples.

Results

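The mitosis and spindle genes are 43 genes whose products enter cells into mitosis, build the spindle, hold and separate the chromosomes and cut the cell apart. The rule lists them by name and role and sets no threshold on a measured value, and each was found on the arrays through the RefSeq symbol of its probes. The list was nevertheless chosen with earlier results of these data known. Shares of members set beside those of all genes are therefore descriptions and not blind tests. All 43 were measured, out of 26477 genes and other transcript features tested, and all 43 were well above background on all 16 arrays. The RNA came from the brains of 16 C57BL/6 mice on postnatal day 1, and the mice differed in the spermatozoa they descended from. The fresh group came from untreated fresh spermatozoa and the freeze-dried group from freeze-dried spermatozoa with no other treatment. The irradiated group came from freeze-dried spermatozoa given 5 Gy of X-rays, and the heated group from freeze-dried spermatozoa kept at 95 °C for 1 h. Each group had 4 animals, 1 array each, and only the sperm was treated, never the animals measured. Litter, dam and sex were not given in the sources used here, so p-values measure the spread between these animals, some of which may be littermates.

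Mitosis starts when cyclin-bound Cdk1 becomes active. The chromosomes are then captured by spindle microtubules at their kinetochores, and a checkpoint delays separation until all are attached, after which the anaphase-promoting complex marks securin and cyclin B for destruction. Most of these genes are transcribed only late in the cell cycle, so that their RNA is found mainly in cycling cells. In the newborn mouse brain such cells are the progenitors around the ventricles, the glial progenitors and the granule neuron progenitors of the cerebellum, while most neurons no longer divide. In RNA of a whole brain, fewer dividing cells and less RNA per dividing cell cannot be told apart.

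Many late cell cycle genes carry a short promoter element, the cell cycle genes homology region, which is written TTTGAA or TTCGAA and is bound by the DREAM and B-Myb complexes, often beside CCAAT boxes bound by NF-Y. A RefSeq promoter (GRCm38.p6, 250 bases before the transcription start and 50 bases from it) was at hand for 36 of the 43 members. None was at hand for Ccna2, Aurkb, Incenp, Spc24, Tpx2, Dlgap5 and Kif20a, which were therefore not read. TTTGAA or TTCGAA was read on either strand in 28 of these 36 (77.8%), against 5854 of 27025 genes with such a promoter (21.7%). CCAAT on either strand was in 26 of the 36 (72.2%), against 41.1% of all genes. Both were in 24 of the 36 (66.7%), against 8.61% of all genes. The longer E2F-type letters TTTCGCGC or TTTGGCGC were in 2 of the 36 (5.56%), against 0.929%. All 11 members with a promoter that fell in the heated group held TTTGAA or TTCGAA, as did 17 of the other 25. A match describes letters only and is not evidence of binding. The 6 promoters below hold the element and belong, among members with a promoter at hand, to those with the smallest p between the heated and freeze-dried groups. Each runs 5′ to 3′ from 200 bases before the start to 22 bases from it. Capitals mark TTTGAA or TTCGAA and CCAAT, or their reverse complements (TTCAAA and ATTGG), and no marked stretch overlaps another.
Mki67: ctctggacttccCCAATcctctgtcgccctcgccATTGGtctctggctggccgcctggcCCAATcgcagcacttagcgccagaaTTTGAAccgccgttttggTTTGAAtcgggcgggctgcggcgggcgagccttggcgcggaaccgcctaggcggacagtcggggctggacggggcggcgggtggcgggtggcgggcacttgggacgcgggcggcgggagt
Cenpa: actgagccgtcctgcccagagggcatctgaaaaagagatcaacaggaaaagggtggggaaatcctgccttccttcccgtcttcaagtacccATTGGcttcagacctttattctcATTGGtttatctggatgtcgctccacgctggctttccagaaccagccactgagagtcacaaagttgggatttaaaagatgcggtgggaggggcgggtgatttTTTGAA
Cdc20: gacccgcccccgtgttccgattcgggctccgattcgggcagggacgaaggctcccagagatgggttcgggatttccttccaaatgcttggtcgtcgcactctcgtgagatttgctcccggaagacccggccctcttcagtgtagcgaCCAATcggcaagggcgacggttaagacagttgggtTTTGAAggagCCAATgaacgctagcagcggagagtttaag
Cdca8: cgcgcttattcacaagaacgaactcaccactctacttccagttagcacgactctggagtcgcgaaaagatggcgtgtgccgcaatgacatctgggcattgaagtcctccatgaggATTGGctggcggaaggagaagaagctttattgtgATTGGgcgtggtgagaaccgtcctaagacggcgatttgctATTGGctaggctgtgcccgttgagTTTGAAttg
Bub1: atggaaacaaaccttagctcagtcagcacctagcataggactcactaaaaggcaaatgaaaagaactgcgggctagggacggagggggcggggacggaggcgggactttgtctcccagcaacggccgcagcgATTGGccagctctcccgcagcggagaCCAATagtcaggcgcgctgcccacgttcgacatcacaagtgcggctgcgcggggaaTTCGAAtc
Kif15: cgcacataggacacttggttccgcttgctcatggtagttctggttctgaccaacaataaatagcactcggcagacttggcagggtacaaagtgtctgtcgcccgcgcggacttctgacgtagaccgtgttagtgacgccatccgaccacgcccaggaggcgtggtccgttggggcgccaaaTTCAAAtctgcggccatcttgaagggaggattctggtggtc
These stretches lie at chr7:135716358-135716579 on the minus strand (Mki67), chr5:30666686-30666907 on the plus strand (Cenpa), chr4:118437322-118437543 on the minus strand (Cdc20), chr4:124936896-124937117 on the minus strand (Cdca8), chr2:127831838-127832059 on the minus strand (Bub1) and chr9:122950881-122951102 on the plus strand (Kif15). Counting the start as 1 and bases before it as negative, the element began at -18 in Cdc20 and at -19, on the other strand, in Kif15. It began just after the start in Cdca8 (14), Bub1 (15) and Cenpa (17). Mki67 held it at both -116 and -98, below a row of CCAAT boxes. Kif15 held a further TTTGAA at -234, on its own strand and outside the printed stretch. It was the member of the 6 with no CCAAT in the window.

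Values below are levels, the log2 of a probe's signal over the 75th percentile of its array, so that 0 is the level of that percentile and a difference of -0.40 is a signal of about 75.9% (as for Ccna2 below). Levels of different genes come from different probes and are not compared. The 75th percentile lay between 719.8 and 958.3 signal units, and 59.9% to 66.1% of probes were well above background. Of the 2 array slides, slide 1 carried the whole freeze-dried group with fresh 1 and 2 and irradiated 1 and 2. The whole heated group was on slide 2, with fresh 3 and 4 and irradiated 3 and 4, and thus no slide carried both heated and freeze-dried animals. Some animals stood apart in the makeup of the tissue. The hindbrain and spinal cord Hox genes, as the median of 12 genes around their own means, ran from -0.10 to 1.65 in 12 animals. They were low in the remaining 4, with fresh 2 at -4.16, heated 4 at -4.45, heated 2 at -3.82 and freeze-dried 2 at -1.42. Signal of 4 Y-linked genes, which reads sex from the arrays, was high in all 4 freeze-dried animals, in 3 irradiated, 2 fresh and 1 heated. By this reading the heated and freeze-dried groups differed in sex as well as in heating. The neuronal gene Stmn2, a check of the tissue, was at 6.90 ± 0.05 in the heated and 6.85 ± 0.06 in the freeze-dried group (SD, n = 4 each).

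The mitotic genes were lower in the brains of mice from heated freeze-dried sperm than in those from freeze-dried sperm. Of the 43 members 13 fell, 0 rose and 42 had a lower mean, with a median difference of -0.277 on the log2 scale, where the median over all genes tested was 0.018. The 13 were Mki67, Cenpa, Tpx2, Cdc20, Cdca8, Bub1, Ccna2, Kif15, Kif23, Ndc80, Ube2c, Ccnb2 and Top2a (limma, adjusted p from 0.0107 to 0.045 with Benjamini-Hochberg adjustment over all 26477). Among all genes tested 1.36% fell, 2.5% rose and 46.3% had a lower mean. The 4 heated animals lay below all 4 freeze-dried animals in 28 of the 43 members (65.1%), against 8.89% of all genes, and 35 members had an unadjusted p under 0.05, 34 of them lower. Of all genes tested 23.8% had such a p, and 10.9% had it with a lower mean. Falls were small: the group means of the 13 were at 65.8% (Tpx2) to 83.6% (Kif15) of the freeze-dried signal.

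The calls did not hold with the slide or the Y-linked signal in the fit, or without the 4 animals low in Hox genes. At least 41 members stayed lower in these fits, but members rise and fall together within an animal. In fresh 2, 42 of the 43 were above their own means, and in irradiated 3, 11 were. The number of lower members is thus not a count of independent readings. With slide as a block, estimated through the fresh and irradiated animals, 41 of 43 members were lower with a median of -0.21, and limma called 0 members and 0 of all genes. Without the 4 animals low in Hox genes 41 were lower with a median of -0.236 and 0 were called. That fit lacked heated 2, heated 4 and freeze-dried 2, and so rested on fewer animals. With Y-linked signal as a covariate the median was -0.278 and 0 were called, and this signal differed between the 2 groups compared. Whether these calls were lost through lower precision alone was not tested. In the authors' deposited value table of the same arrays 42 were lower with a median of -0.13, and 0 were called. Single animals also decided the count: 1 member was called without heated 2, 2 without freeze-dried 2, 4 without heated 4, 6 without heated 3 or freeze-dried 1, 7 without freeze-dried 3 and 20 without fresh 2. Mki67 was the 1 member called whichever of the 16 arrays was left out (largest adjusted p 0.0394).

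**Figure D1:**
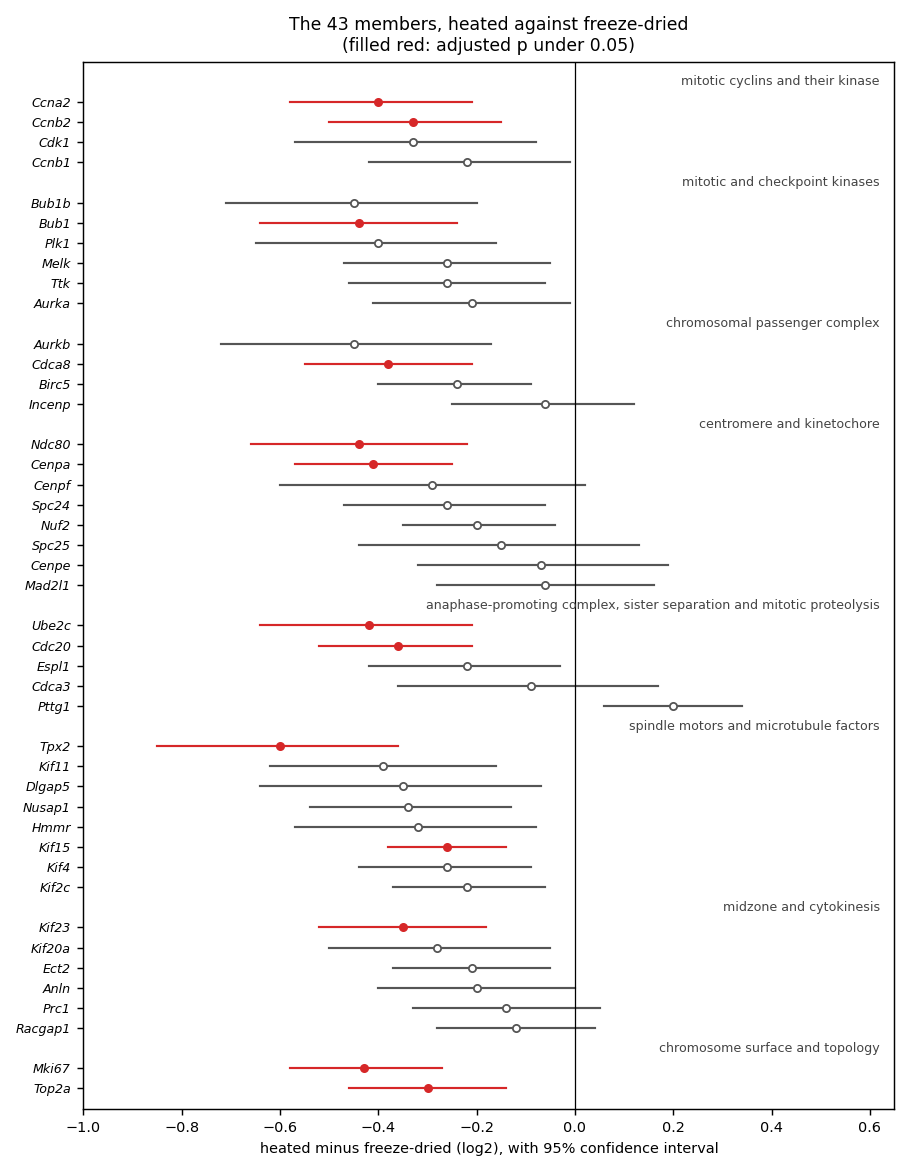
Difference between the heated and freeze-dried groups (x axis, log2) for each of the 43 members (y axis, by role), as points with 95% confidence intervals from the limma fit. Filled red points are the 13 members with an adjusted p under 0.05. Of the 43 points 42 lie left of 0, from -0.60 for Tpx2, and Pttg1 lies right of it at 0.20.

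Among the mitotic cyclins and their kinase all 4 had lower means in the heated group and 2 fell. Ccna2, cyclin A2, which drives the end of DNA replication and entry into mitosis, was at 1.84, 1.87, 1.73 and 1.67 in the freeze-dried animals and at 1.47, 1.31, 1.44 and 1.30 in the heated ones. It was at 1.52, 1.88, 1.53 and 1.56 in the fresh animals and at 1.80, 1.70, 1.55 and 1.63 in the irradiated ones. All 4 heated animals lay below all 12 others. The difference from the freeze-dried group was -0.40 (SE 0.086, adjusted p = 0.0261). Ccnb2, cyclin B2, was at 1.62, 1.56, 1.62 and 1.48 in the freeze-dried and 1.39, 1.15, 1.27 and 1.16 in the heated animals. Heated 1 was the nearest to the freeze-dried range, and these 2 groups did not overlap. The fresh animals were at 1.35, 1.72, 1.42 and 1.38 and the irradiated ones at 1.43, 1.38, 1.36 and 1.5. Fresh 1 and 4 and irradiated 2 and 3 lay inside the heated range, just under heated 1. The difference was -0.33 (SE 0.082, adjusted p = 0.0426). Cdk1, the kinase both cyclins activate, differed by -0.33 (adjusted p = 0.109) and Ccnb1, cyclin B1, by -0.22 (adjusted p = 0.182). Each of these 2 was also lower in all 4 heated animals than in all 4 freeze-dried ones.

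Of the 6 mitotic and checkpoint kinases 1 fell and the other 5 had lower means. Bub1, a kinase of the spindle checkpoint that sits at kinetochores, was at -1.11, -1.06, -0.98 and -1.22 in the freeze-dried and -1.44, -1.75, -1.54 and -1.41 in the heated animals. It was at -1.24, -1.0, -1.28 and -1.29 in the fresh and at -1.18, -1.23, -1.45 and -1.14 in the irradiated animals. Heated 2 was the lowest of the 16 and freeze-dried 3 the highest, and irradiated 3 lay inside the heated range. The difference was -0.44 (SE 0.094, adjusted p = 0.0253). Its relative Bub1b, BubR1, which holds back Cdc20, stood just outside the threshold at -0.45 (adjusted p = 0.0509), with freeze-dried 2 at -0.58 above the other freeze-dried animals at -0.97 to -1.15. Plk1, the Polo kinase of mitotic entry and spindle building, differed by -0.40 (adjusted p = 0.0657). Melk, a kinase of proliferating progenitors, and Ttk, the Mps1 kinase that starts the checkpoint, each differed by -0.26 (adjusted p = 0.13 and 0.108). Ttk had its 4 heated animals below all 12 others, between -2.41 and -2.34. Aurka, Aurora A, which matures the spindle poles, differed by -0.21 (adjusted p = 0.187).

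The chromosomal passenger complex corrects wrong attachments and later directs cytokinesis. Its subunit borealin, Cdca8, fell, from 2.22, 2.09, 2.09 and 2.06 in the freeze-dried to 1.80, 1.66, 1.75 and 1.72 in the heated animals. Fresh animals were at 2.03, 2.32, 1.92 and 2.01 and irradiated ones at 2.16, 2.07, 1.97 and 1.98, so that the 4 heated animals lay below all 12 others. The difference was -0.38 (SE 0.079, adjusted p = 0.021). The kinase of the complex, Aurkb, differed by -0.45 (adjusted p = 0.0668) and survivin, Birc5, by -0.24 (adjusted p = 0.0682). The scaffold Incenp differed by -0.06, with a 95% interval from -0.25 to 0.12.

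Of the 8 centromere and kinetochore genes 2 fell. Cenpa, the histone H3 variant that marks centromeres, was at 0.46, 0.49, 0.44 and 0.27 in the freeze-dried and at 0.04, -0.03, 0.04 and -0.02 in the heated animals. In the fresh group it was at 0.38, 0.55, 0.34 and 0.33 and in the irradiated group at 0.37, 0.17, 0.07 and 0.31. Irradiated 3 came nearest to the heated animals, which lay below all 12 others. Cenpa fell by 0.41 (SE 0.074, adjusted p = 0.0127). Ndc80, the microtubule-binding subunit of the outer kinetochore, was at -2.07, -2.07, -2.29 and -2.19 in the freeze-dried and -2.65, -2.73, -2.63 and -2.38 in the heated animals. Heated 4 was the highest of its group and still below every freeze-dried animal. The fresh animals were at -2.35, -2.1, -2.34 and -2.36 and the irradiated ones at -2.11, -2.55, -2.33 and -2.22. Irradiated 2 lay inside the heated range and the 4 fresh animals above it. The difference was -0.44 (SE 0.101, adjusted p = 0.0311). Of its partners in the same complex Spc24 differed by -0.26 (adjusted p = 0.115), Nuf2 by -0.20 (adjusted p = 0.128) and Spc25 by -0.15 on its brightest probe (adjusted p = 0.503), with another value on its other probe, given below. Cenpf differed by -0.29 (adjusted p = 0.242). The motor Cenpe, which carries chromosomes to the spindle equator, differed by -0.07 (-0.32 to 0.19) and the checkpoint protein Mad2l1 by -0.06 (-0.28 to 0.16).

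The genes that release the sister chromatids held both directions. Cdc20, which switches on the anaphase-promoting complex, was at 2.03, 2.02, 1.83 and 1.77 in the freeze-dried and at 1.61, 1.53, 1.54 and 1.52 in the heated animals. The fresh animals lay at 1.81, 2.02, 1.85 and 1.87, the irradiated ones at 1.88, 1.73, 1.65 and 1.71, and again all 4 heated animals lay below all 12 others. Cdc20 fell by 0.36 (SE 0.072, adjusted p = 0.0182). Ube2c, the ubiquitin-conjugating enzyme of the same complex, was at 1.49, 1.56, 1.32 and 1.30 in the freeze-dried and 1.13, 0.91, 1.05 and 0.88 in the heated animals. It was at 1.21, 1.58, 1.26 and 1.29 in the fresh and at 1.4, 1.38, 1.06 and 1.23 in the irradiated animals. The heated and freeze-dried animals did not overlap, the fresh ones lay above the heated range, and irradiated 3 lay inside it. The difference was -0.42 (SE 0.101, adjusted p = 0.0356). Pttg1, securin, the inhibitor that this complex destroys to free separase, was the 1 member with a higher mean. It was at 2.84, 2.89, 2.92 and 2.84 in the freeze-dried and at 3.10, 3.13, 3.04 and 3.04 in the heated animals. The irradiated animals were at 2.89, 2.97, 2.95 and 3.06. The heated and freeze-dried groups did not overlap, but the difference of 0.20 (SE 0.065) missed the threshold (adjusted p = 0.087). With only these 2 groups in the fit it passed (adjusted p = 0.0444), and with slide as a block the difference was 0.06 (adjusted p = 0.929). Separase, Espl1, differed by -0.22 (adjusted p = 0.155) and Cdca3, a trigger of mitotic entry, by -0.09 (adjusted p = 0.683).

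All 8 spindle motors and microtubule factors had lower means and 2 fell. Tpx2, which activates Aurora A and nucleates microtubules around chromosomes, had the largest difference of the 43 members. It was at 0.05, 0.05, -0.05 and -0.12 in the freeze-dried and -0.60, -0.65, -0.51 and -0.73 in the heated animals. The irradiated animals were at -0.09, -0.28, -0.45 and -0.27, with irradiated 1 inside the freeze-dried range and the other 3 between the 2 ranges. The fresh animals, at -0.21, 0.10, -0.55 and -0.37, ran from above the freeze-dried range to inside the heated one. Against the freeze-dried group Tpx2 fell by 0.60 (SE 0.115, adjusted p = 0.0157). Kif15, a motor that helps keep the spindle bipolar, was at -2.25, -2.27, -2.08 and -2.29 in the freeze-dried and at -2.48, -2.51, -2.48 and -2.45 in the heated animals. The 4 heated values lay close together and below all 12 others. The difference was -0.26 (SE 0.057, adjusted p = 0.0269). Among the rest, Kif11, the motor that pushes the poles apart, differed by -0.39 (adjusted p = 0.0581), Nusap1, a microtubule bundler, by -0.34 (adjusted p = 0.063) and Kif4 by -0.26 (adjusted p = 0.0811). Kif2c, which takes microtubules apart at centromeres, differed by -0.22 (adjusted p = 0.0949), Hmmr by -0.32 (adjusted p = 0.11) and Dlgap5 by -0.35 (adjusted p = 0.126). In 7 of these 8 genes the heated and freeze-dried animals did not overlap; in Dlgap5 they did.

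Midzone and cytokinesis genes all had lower means, and Kif23 fell. Kif23, the motor subunit of centralspindlin, was at -1.24, -1.19, -1.27 and -1.28 in the freeze-dried and -1.63, -1.67, -1.58 and -1.50 in the heated animals. These ranges did not meet. The fresh animals were at -1.21, -1.13, -1.4 and -1.43 and the irradiated ones at -1.26, -1.27, -1.54 and -1.41. Irradiated 3 lay inside the heated range and the other 7 above it. The difference was -0.35 (SE 0.078, adjusted p = 0.029). Kif20a, which moves passenger proteins to the midzone, differed by -0.28 (adjusted p = 0.128). Ect2, the exchange factor that switches on RhoA at the cleavage site, differed by -0.21 (adjusted p = 0.116) and anillin, Anln, by -0.20 (adjusted p = 0.199). Prc1, which bundles midzone microtubules, differed by -0.14 (adjusted p = 0.369) and Racgap1, the partner of Kif23, by -0.12 (adjusted p = 0.343).

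Mki67, the surfactant-like coat of mitotic chromosomes and the usual marker of proliferation, had the smallest p of the 43. It was at 2.55, 2.53, 2.60 and 2.5 in the freeze-dried and 2.21, 1.98, 2.25 and 2.03 in the heated animals. In the fresh group it was at 2.42, 2.57, 2.33 and 2.33 and in the irradiated group at 2.41, 2.49, 2.32 and 2.37. Heated 2 and 4 were the lowest of the 16, and heated 1 and 3 were next. Mki67 fell by 0.43 (SE 0.072, adjusted p = 0.0107). Top2a, the topoisomerase that untangles sister DNA, was at 1.69, 1.73, 1.64 and 1.62 in the freeze-dried and 1.38, 1.28, 1.45 and 1.38 in the heated animals. It was at 1.51, 1.88, 1.53 and 1.61 in the fresh and at 1.75, 1.64, 1.55 and 1.63 in the irradiated animals, so that again all 4 heated animals lay below all 12 others. The difference was -0.30 (SE 0.076, adjusted p = 0.045), and it was called in 4 of the 16 fits that each left out 1 array.

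**Figure D2:**
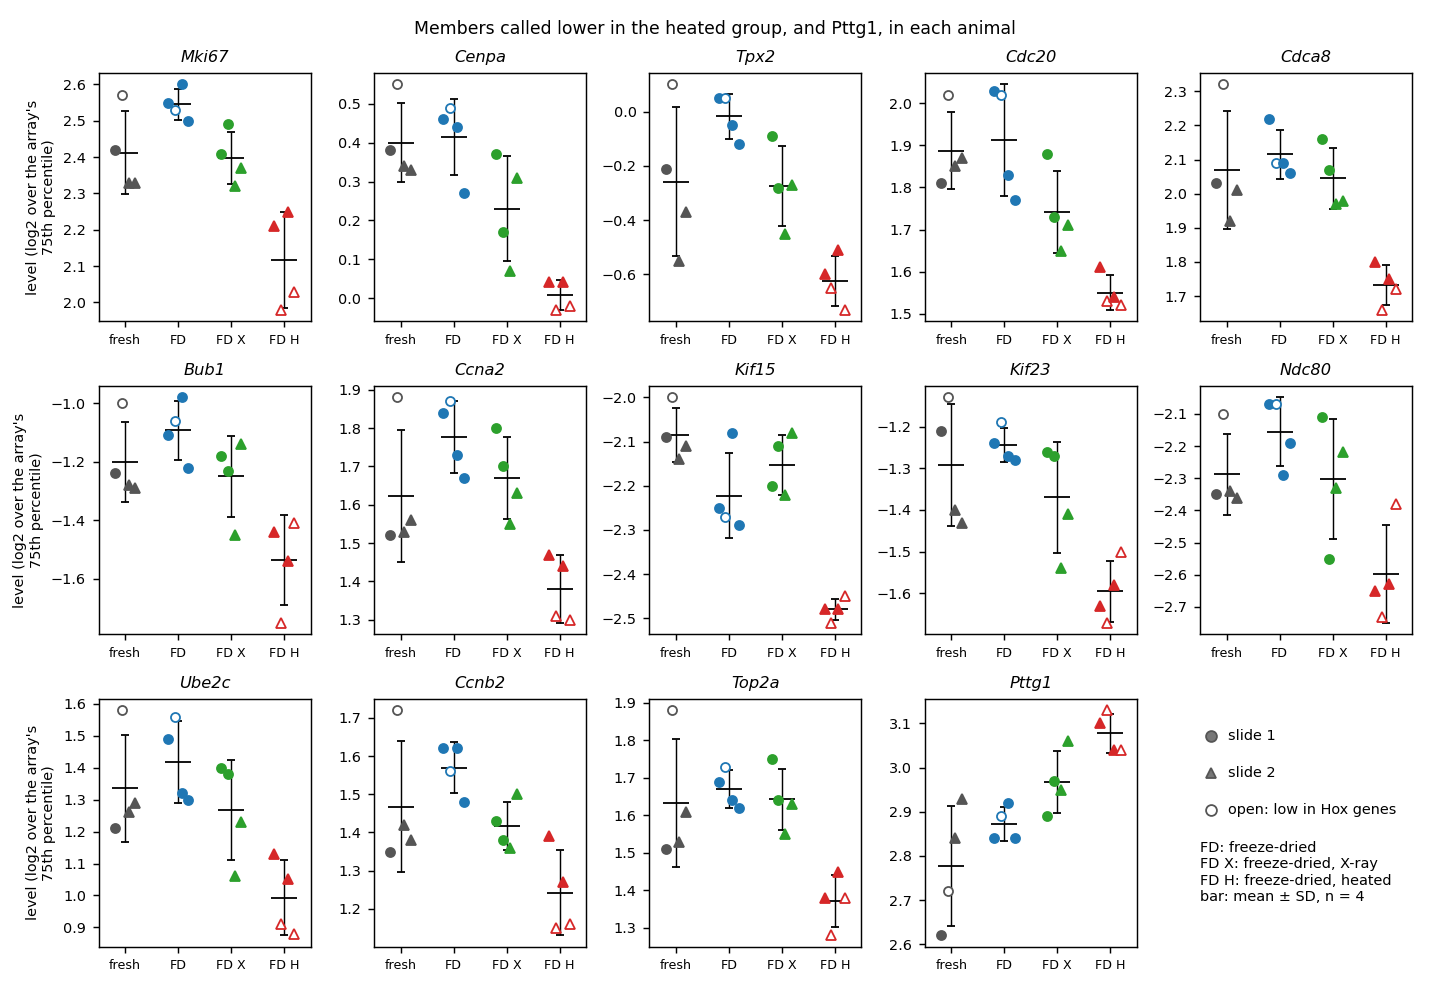
Level in each animal (y axis, log2 over the array's 75th percentile; the scale differs between panels) of the 13 members that fell and of Pttg1, by group (x axis). Circles are slide 1, triangles slide 2, open symbols the 4 animals low in Hox genes, bars the mean ± SD (n = 4). The heated animals lie below the freeze-dried ones in each of the 13 panels and above them for Pttg1.

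Counted over all 43 members, the heated group had the lowest of the 4 group means in 41, the exceptions being Pttg1 and Anln, and the freeze-dried group had the highest in 27. The shares of all genes with these ranks were not computed. In 9 members (Ccna2, Ttk, Cdca8, Cenpa, Cdc20, Kif15, Kif4, Mki67 and Top2a) all 4 heated animals lay below all 12 others, which held for 0.77% of all genes tested. The median member level of an animal, each gene taken around its own mean, ran from -0.277 to -0.120 in the heated group. It ran from -0.001 to 0.182 in the freeze-dried, from -0.103 to 0.092 in the irradiated and from -0.014 to 0.252 in the fresh group. Among the animals low in Hox genes, fresh 2 had the highest median of the 16 and heated 2 the lowest, with 42 and 1 of the 43 members above their own means. Heated 1 and heated 3, which were not low in Hox genes, had medians of -0.120 and -0.155. The lowest animal of the other groups, irradiated 3, was close by at -0.103, and the pooled SD of this median between animals was 0.0941. The part of the Hox difference in these medians was not tested.

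**Figure D3:**
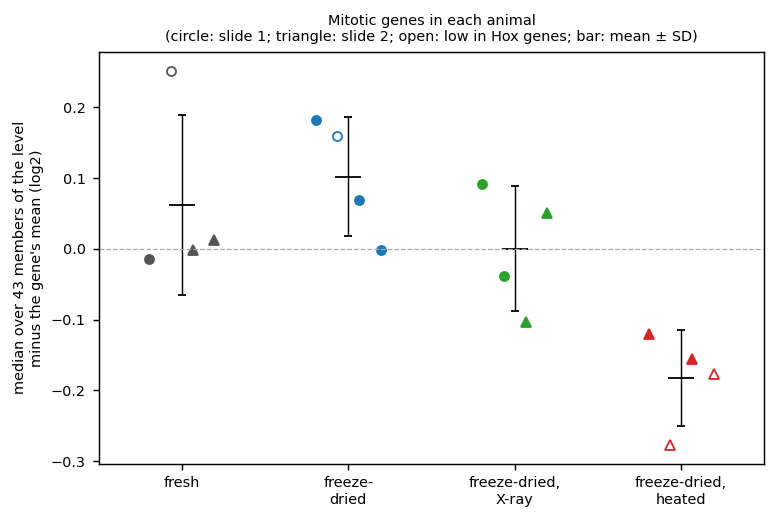
Median over the 43 members of the level minus the gene's mean (y axis, log2) in each animal, by group (x axis). Circles are slide 1, triangles slide 2, open symbols the 4 animals low in Hox genes, bars the mean ± SD (n = 4). The 4 heated animals lie between -0.277 and -0.120, below the other 12.

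**Figure D4:**
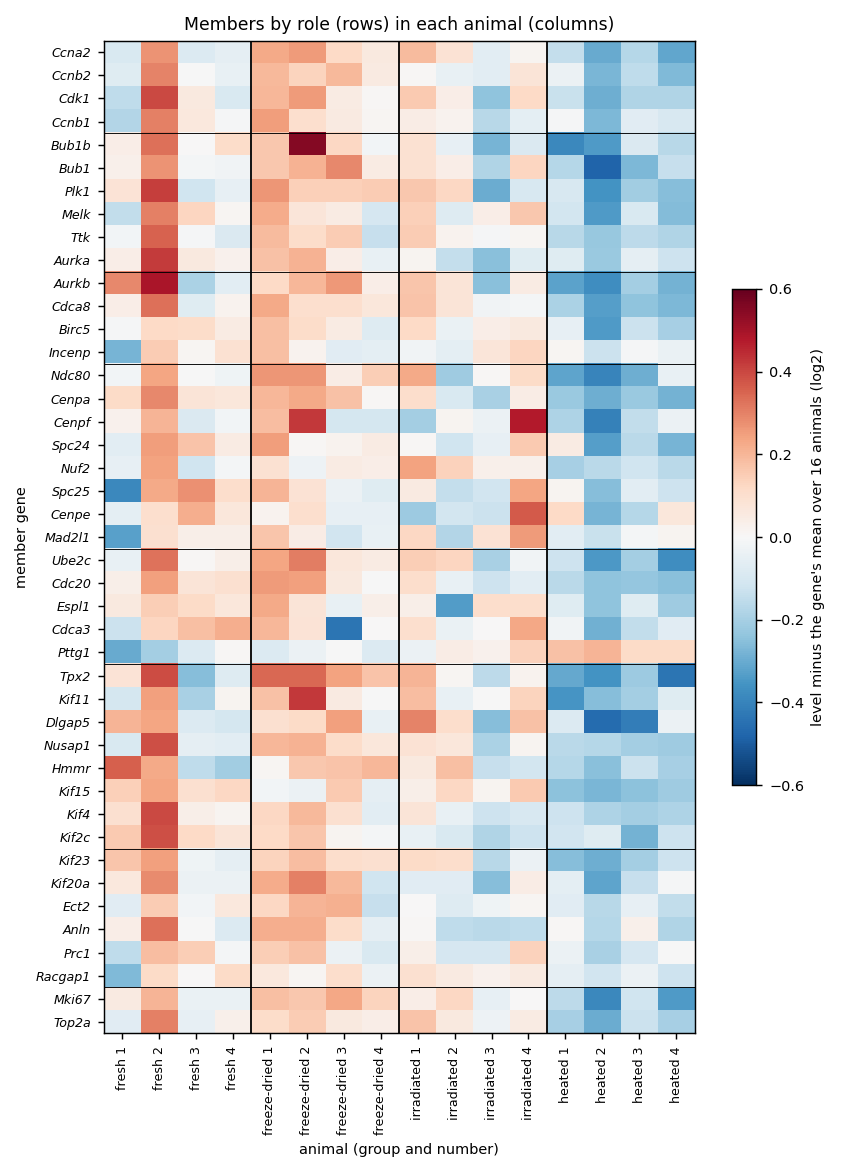
Level of each member (rows, by role, lines between roles) in each animal (columns, lines between groups) minus the gene's mean over the 16 animals, as colour on a log2 scale from blue (lower) to red (higher). In heated 1, 2, 3 and 4 the number of genes above their own mean was 6, 1, 2 and 3 of 43, Pttg1 among them each time, and in fresh 2 it was 42.

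A total of 18 members had more than 1 probe above background. These further probes read the same RNA on the same arrays and are not a separate test of the groups. All 21 of them had a lower mean in the heated than in the freeze-dried group, and the share over the further probes of all genes was not computed. With each of the 34261 kept probes tested by itself, 17 of the 64 member probes fell (26.6%), from 15 members, against 512 of all probes (1.49%). The 2 members added in this way were Ccnb1, 1 of whose 2 dimmer probes differed by -0.58 (adjusted p = 0.0143), and Spc25, whose dimmer probe differed by -0.58 (adjusted p = 0.0126) where the brightest probe gave -0.15. Probes of a gene also disagreed in size for Racgap1 (-0.12 and -0.52), Mad2l1 (-0.06 and -0.40) and Incenp (-0.06 and -0.26). For Kif23 the brightest probe carried the fall (-0.35) and the other gave -0.09. The brightest probe stands for a gene in all counts above.

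The heated group was also set against the fresh group. Fresh 3 and 4 were on slide 2 with the heated animals, and fresh 1 and 2 were on slide 1. Of the 43 members 6 fell and 1 rose, 42 had lower means, and the median difference was -0.248, against 0.032 over all genes. Among all genes 0.54% fell, 2.39% rose and 42.1% had a lower mean. The heated animals lay below all fresh animals in 20 members, against 3.78% of all genes. Kif15 fell by 0.40 (SE 0.057, adjusted p = 0.00427), from -2.09, -2.0, -2.14 and -2.11 in the fresh animals, to 75.9% of the fresh signal. Cenpa fell by 0.39 (adjusted p = 0.0143), Cdc20 by 0.34 (adjusted p = 0.0226), Kif2c by 0.33 (adjusted p = 0.027), Cdca8 by 0.33 (adjusted p = 0.0374) and Mki67 by 0.29 (adjusted p = 0.0422). Kif2c was at -2.70, -2.47, -2.74 and -2.78 in the fresh and at -2.97, -2.93, -3.14 and -2.98 in the heated animals. These ranges did not meet. The freeze-dried animals, at -2.74, -2.69, -2.84 and -2.87, also lay above the heated ones. Pttg1 rose by 0.30 (SE 0.065, adjusted p = 0.0259), from 2.62, 2.72, 2.84 and 2.93 in the fresh animals.

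With slide as a block Kif15 (-0.38, adjusted p = 0.0184) and Cenpa (-0.34, adjusted p = 0.0487) kept their calls and the other 5 lost them. Within slide 2 alone, fresh 3 and 4 against the 4 heated animals, 42 members were lower with a median of -0.165, and limma called 0 members and 0 of all genes. There Kif15 differed by -0.36 (adjusted p = 0.118) and Pttg1 by 0.19 (adjusted p = 0.261). Without the 4 animals low in Hox genes, among them heated 2, heated 4 and fresh 2, the median was -0.131 and 0 were called. The count was 1 without heated 2, 2 without heated 4 or fresh 2, 3 without heated 1, heated 3 or fresh 1, and 11 without fresh 3. Kif15 was called whichever array was left out (largest adjusted p 0.0232).

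The irradiated and heated groups differ in what the dried sperm was given. Irradiated 3 and 4 were on slide 2 with the heated animals, and irradiated 1 and 2 were on slide 1. Kif15 was 0.33 higher in the irradiated group (SE 0.057, adjusted p = 0.018), at -2.20, -2.11, -2.22 and -2.08, and was the 1 member called. Among all genes 0.472% were called higher and 0.536% lower. A higher mean in the irradiated group was seen in 41 of 43 members, with a median of 0.203 against -0.004 over all genes. Of all genes 48.9% had a higher mean. Cdca8 (0.32, adjusted p = 0.0785), Mki67 (0.28, adjusted p = 0.0851) and Nuf2 (0.27, adjusted p = 0.101) came next. Kif15 kept its call with slide as a block (0.31, adjusted p = 0.0415) and lost it within slide 2 (0.33, adjusted p = 0.0529). It also lost the call without heated 2, heated 3, irradiated 2 or irradiated 4, with 0 members then called, and 4 members were called without fresh 2. The count was also 0 with quantile normalization, with normexp background correction, in the authors' deposited value table, with no filter on dim probes and with the mean of all kept probes. It was 0 again without the 4 animals low in Hox genes, with the Y-linked covariate and with an intensity trend and robust prior.

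No member passed the threshold when irradiated animals were set against freeze-dried ones: limma called 0 of 43 members and 0% of all genes in either direction, with 8 members at an unadjusted p under 0.05, all lower, against 3.11% of all genes. In 35 members the irradiated mean was lower, as in 45.1% of all genes. The median difference was -0.109, against 0.015 over all genes. The smallest p belonged to Anln (-0.24, 95% interval -0.44 to -0.04), Kif2c (-0.18, -0.34 to -0.03), Cenpa (-0.18, -0.34 to -0.02) and Bub1b (-0.28, -0.54 to -0.03), each with an adjusted p of 0.685. The irradiated animals lay below all freeze-dried ones in 2 members, against 1.82% of all genes. Within slide 1 the median was -0.068 and 34 members were lower. Leaving out 1 array gave medians from -0.152 to -0.067, with 31 to 38 members lower, and the median nearest to 0 was the one without irradiated 3.

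Set against the fresh group, the irradiated group had lower means in 33 members with a median of -0.051, against 0.032 over all genes, and limma called 0 members, with 5 at an unadjusted p under 0.05, against 16.9% of all genes. Among all genes 0.51% fell, 0.865% rose and 41.1% had a lower mean. Kif2c was nearest to a call, at -2.90, -2.95, -3.04 and -2.98 in the irradiated animals, all below the fresh ones. Its difference was -0.30 (SE 0.073, adjusted p = 0.0605), and with slide as a block it passed (-0.30, adjusted p = 0.0342). The next were Pttg1 (0.19, adjusted p = 0.16), Aurka (-0.25, adjusted p = 0.202) and Cenpa (-0.17, adjusted p = 0.27). The median was -0.084 within slide 1 and -0.025 within slide 2. Without fresh 2 it was 0.005, with 18 members lower, and without irradiated 3 it was -0.012, with 24 lower. Without fresh 1 it was -0.081, with 34 lower.

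Freeze-drying alone was compared with fresh sperm, and limma called 0 members and 0% of all genes in either direction. The freeze-dried mean was higher in 32 members and lower in 11, with a median of 0.044 against 0.018 over all genes. Of all genes 55.3% had a higher mean. At an unadjusted p under 0.05 stood 1 member, Kif15 (-0.14, 95% interval -0.26 to -0.02, adjusted p = 0.468), where 3.61% of all genes were lower at such a p. Tpx2 (0.24, -0.01 to 0.49), Mki67 (0.13, -0.02 to 0.28) and Ccna2 (0.15, -0.03 to 0.34) followed, with adjusted p from 0.508 to 0.566. Within slide 1 the median was -0.010. Single animals moved it: it was 0.009 without fresh 1, with 20 members lower, and 0.108 without fresh 2, with 5 lower. It was 0.070 without freeze-dried 4, with 6 lower, 0.027 without fresh 3 or freeze-dried 2, with 13 and 15 lower, and 0.028 without fresh 4, with 17 lower. These comparisons share their control animals, so the fresh and freeze-dried values of a member enter more than 1 of them.

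Other genes of the cell cycle were read as lists. Between the freeze-dried and heated groups 1.36% of all genes tested fell, 2.5% rose and 46.3% had a lower mean. Of 67 further mitosis genes outside the 43, 11 fell and 0 rose between the freeze-dried and heated groups, 57 had lower means and the median was -0.239. The smallest p belonged to Ska1 (-0.58, adjusted p = 0.00576), which couples kinetochores to microtubule ends, and Sgo1 (-0.46, adjusted p = 0.0127), the guardian of centromere cohesion. Knl1 (-0.48, adjusted p = 0.0143), the kinetochore platform of Bub1, and the kinase Pbk (-0.46, adjusted p = 0.0209) also fell. Of 17 condensin and cohesin genes 1 fell, the cohesin releaser Wapl (-0.30, adjusted p = 0.0444), with a median of -0.075. Of 16 subunits and partners of the anaphase-promoting complex none fell or rose, with a median of -0.048 and Anapc15 nearest (-0.25, adjusted p = 0.0503). In this list 3 genes had an unadjusted p under 0.05 (limma), as had 23.8% of all genes.

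Upstream regulators and the earlier phases were read in the same way, beside the same shares of all genes (1.36% fell and 2.5% rose). Of 16 genes for the DREAM, MuvB, Myb and FoxM1 regulators 2 fell, B-Myb, Mybl2, which switches late cell cycle promoters on (-0.50, adjusted p = 0.0269), and the histone chaperone Rbbp4 (-0.32, adjusted p = 0.0281), with a list median of -0.125. Of 39 genes for the start of DNA replication 7 fell and 0 rose, 33 had lower means and the median was -0.188. Among them were Rrm1, a subunit of ribonucleotide reductase (-0.34, adjusted p = 0.0194), and Mcm5 (-0.67, adjusted p = 0.0228) and Mcm7 (-0.31, adjusted p = 0.0443) of the replicative helicase. Of 12 early cyclins, their kinases and inhibitors 1 fell, Cdkn1c (-0.27, adjusted p = 0.032), an inhibitor found in cells leaving the cycle. Against the fresh group 4 of the 67 further mitosis genes, 4 of the 39 replication genes and 1 of the 12 fell, and 0 rose in these lists. Of all genes 0.54% fell and 2.39% rose in that comparison. Against the freeze-dried group the irradiated animals had 0 calls in all of these lists, and 0% of all genes were called.

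Marker lists of the cell types of the brain and its coverings were read for heated minus freeze-dried, and their part in the result was not tested. Among all genes 1.36% fell and 2.5% rose in this comparison. An unadjusted p under 0.05 (limma) was found for 23.8% of all genes, and for 10.9% with a lower mean. Of 15 neural progenitor genes 3 fell, namely Btg2 (-0.41, adjusted p = 0.0264), Insm1 (-0.42, adjusted p = 0.028) and Eomes (-0.62, adjusted p = 0.0294). The median of the list was -0.216, and 5 of the 15 had higher means. Of 10 genes of cerebellar granule neuron progenitors 1 fell, Zic2 (-0.81, adjusted p = 0.0111), with a median of -0.232, and their defining gene Atoh1 was at -2.45 ± 0.13 in the freeze-dried and -4.69 ± 2.76 in the heated animals. The median of that list in single heated animals was 0.103 in heated 1, -0.463 in heated 2, 0.080 in heated 3 and -0.205 in heated 4. Of 9 ependymal genes 4 rose, among them Ccdc153 (1.06, adjusted p = 0.00377) and Tmem212 (1.06, adjusted p = 0.00824), with a median of 0.35. Ependymal cells line the ventricles after leaving the cycle. Of 7 astrocyte genes Slc1a2 (0.43, adjusted p = 0.036) and Gfap (0.78, adjusted p = 0.039) rose, and of 10 oligodendrocyte lineage genes Pdgfra rose (0.30, adjusted p = 0.0458). Among 12 genes of postmitotic neurons Syt1 rose (0.29, adjusted p = 0.0261), with a median of 0.043. Endothelial genes were split: of 8, the receptors Kdr (0.28, adjusted p = 0.0378) and Flt1 (0.40, adjusted p = 0.0441) rose, and the median was -0.011. Lower means were seen in 4 of the 8, with 3 of them at an unadjusted p under 0.05 (limma). Of 8 meningeal and fibroblast genes, which also hold Pdgfra, Postn fell (-0.49, adjusted p = 0.0335) and 6 had lower means, with a median of -0.21. Otx2 fell (-0.43, adjusted p = 0.011) among 8 choroid plexus genes, whose median was -0.007. En2 fell (-0.57, adjusted p = 0.036) among 9 genes of Purkinje and other cerebellar neurons, whose median was -0.163. The summed level of the 8 blood leukocyte genes was 0.28 to 0.69 in the heated and 0.73 to 1.83 in the freeze-dried animals, and none of the 8 was called (limma, 5 at an unadjusted p under 0.05).

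**Figure D5:**
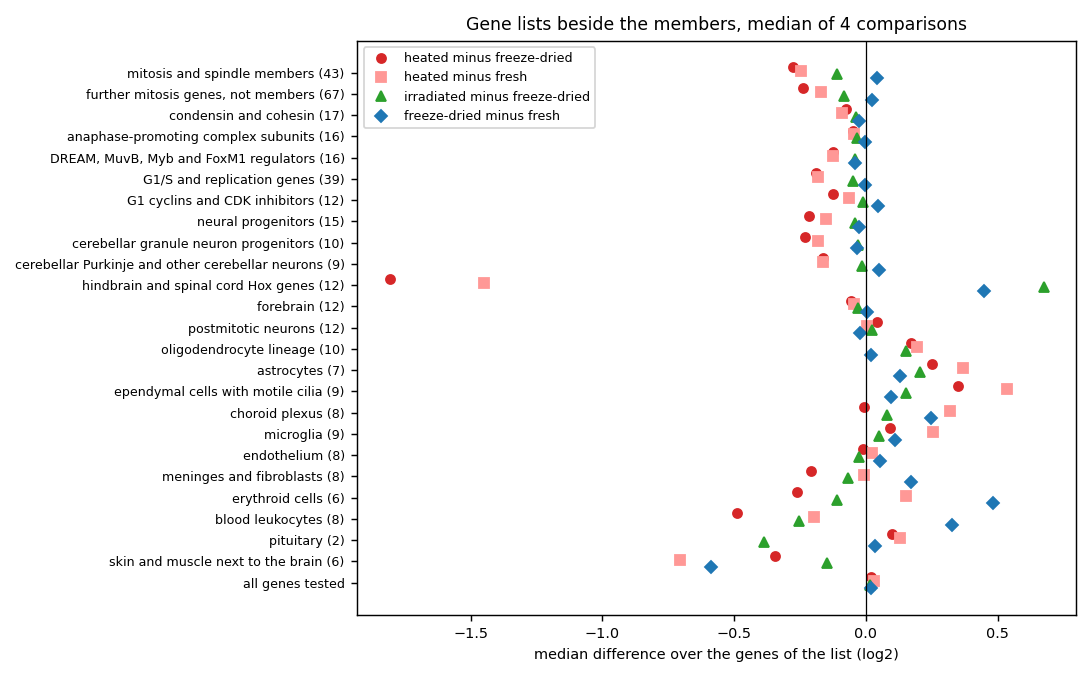
Median difference (x axis, log2) over the genes of each list (y axis, number of genes tested in brackets) in 4 comparisons, each with its own symbol, between the 43 members at the top and all genes tested at the bottom. For heated minus freeze-dried the members stand at -0.277, the further mitosis genes at -0.239, the ependymal genes at 0.35 and all genes at 0.018.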

How the data were processed

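Total RNA of 16 mouse brains was labelled with Cy3 and hybridised to 1-colour Agilent arrays, per the labels. The submitters' processing notes name Agilent Feature Extraction 11.0.1.1 as the program with which the authors read spot intensity; the deposited processed intensity is background-subtracted and not scaled between arrays, and the deposited flags for background, saturation and outliers were used as given. The authors' value table (31313 probes, log2 scale; column medians 9.33 to 9.35) followed the log2 of the processed signals on each array (Pearson's r at least 0.999), and its normalization is not given in the sources used here. The array design was annotated on mouse build mm9, and none of its coordinates are printed.

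From these files, log2 was taken of each spot's signal. The log2 values of a probe's spots were averaged without control spots (3671 of 62976) and outlier spots, and each array's 75th percentile was subtracted. A probe entered the tests if 1 or more groups had it well above background in all 4 animals (34261 of 56605). The brightest kept probe stands for a gene, named by its RefSeq transcript (15993 of the 26477 tested had a symbol). The 4 group means were fitted over all 16 arrays in limma 3.58.1 (R 4.3.3, lmFit and eBayes), with Benjamini-Hochberg adjustment over all 26477 and a threshold of 0.05. "Rose" and "fell" mean past it. Tests are two-sided. Tested on simulated data with 26450 genes, the fit recovered 62 of 100 genes changed by 0.5 and 81 of 100 changed by 1 on the log2 scale between the heated and freeze-dried groups. Depth does not apply to arrays; their number, 4 a group, limits the precision.

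The members and all lists were chosen with earlier results of these data known. Values in every animal were given for members called in any comparison, at most 3 a role; the 4 members with the smallest p were named in each other comparison, and at most 4 genes of a list. Alternatives were the scaling, background correction (normexp with an offset of 50, on median signals, since mean signals were not used here), filter, probe rule, slide, replicate number, left-out arrays and covariates; the 75th percentile over spots and the test of every probe were chosen after seeing the data. Promoter sequences are RefSeq's (GRCm38.p6).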

Additional observations from a re-analysis of the deposited data

Results flagged for a closer look

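In groups of 4, an animal was looked at again where its gap to the nearest other animal took up more than 0.829 of the group's range (Dixon's 95% value); chance gives this in about 1 in 20 groups, and 172 member and group sets were looked at. In the fresh group fresh 2 was the high animal for Ccna2 (1.88 against 1.56 for the next, ratio 0.907), Aurka (1.90 against 1.54, 0.927), Bub1 (-1.0 against -1.24, 0.843), Ndc80 (-2.10 against -2.34, 0.922) and Nusap1 (0.37 against -0.07, 0.909). Its median over the 43 members stood apart as well (ratio 0.904). Fresh 2 was also low in Hox genes and high in Y-linked signal. Fresh 1 was the low animal for Mad2l1 (0.46 against 0.82, 0.847). Freeze-dried 1 was high for Plk1 (1.95 against 1.84, 0.935), irradiated 1 for Anln (0.46 against 0.30, 0.904) and heated 1 for Cdc20 (1.61 against 1.54, 0.852). The irradiated minus fresh difference was compared between the 2 slides by an interaction term, and limma called 0 members (smallest adjusted p 1).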

How the results depend on the processing

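Between heated and freeze-dried animals the 13 calls became 0 in the deposited value table (median -0.130), 0 with slide as a block or as a random block, 0 without the 4 arrays low in Hox genes and 0 with Y-linked signal as a covariate. They became 6 with no filter on dim probes, 21 with only the 2 groups in the fit and 24 with array weights; leaving out 1 array gave 1 to 20, with medians from -0.317 to -0.250. Against the fresh group the 7 calls became 3 in the value table, 2 with no filter, 2 with slide as a block, 0 with only the 2 groups, 0 without the arrays low in Hox genes (median -0.131) and 0 within slide 2; leaving out 1 array gave 1 to 11. Between the irradiated and heated groups the 1 call became 0 with quantile normalization, with normexp, in the value table, with no filter, with the mean of all kept probes, without the arrays low in Hox genes, with the Y-linked covariate, with an intensity trend and robust prior, and within slide 2. It became 2 with only the 2 groups and 5 with array weights; leaving out 1 array gave 0 to 4. Between the irradiated and fresh groups the 0 calls became 2 in the value table and 1 with slide as a block, slide as a random block, the replicate block or the percentile over spots; leaving out 1 array gave 0 to 1. The other 2 comparisons kept 0 calls throughout. The heated minus freeze-dried difference changed sign for Hmmr with slide as a block (0.039) and for Cenpe without the arrays low in Hox genes (0.004) and without heated 2 (0.006; from -0.128 to 0.006 over the fits that each left out 1 array). The cause of these changes was not tested.

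Replicate numbers were not taken to pair the animals. Deviations of same-numbered animals correlated from -0.387 to 0.383, over 0.1 in 10 of 24 pairs. Differently numbered animals were not read beside them, so these values cannot decide whether the numbers pair animals. With the replicate block 12 members were called between heated and freeze-dried, 7 between heated and fresh, 1 between irradiated and heated and 1 between irradiated and fresh (Kif2c).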
